A study of Homo sapiens with 8 samples.

Results

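DU145 and PC3 are established human prostate carcinoma lines that grow without androgen, DU145 taken from a metastasis in the brain and PC3 from a metastasis in bone. They were set against each other in DNA methylation and in gene expression, with DU145 compared to PC3 throughout. Each line had 1 methylation array and 1 expression array, which gives 4 of the 8 samples of the study. The other 4 samples were the same pair of arrays for LNCaP-FGC, an androgen-sensitive prostate carcinoma line, and for RWPE-1, a line of non-cancerous prostate epithelium used as the control. The labels name no treatment, time point, passage or genetic change for either line, and no repeat culture or array. Differences are therefore described by size, and no difference has a replicate error or a p-value.

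Of 27578 CpG sites on the methylation array, the 27541 with a value on all 4 arrays were used. The 37 sites set aside lacked a value on at least 1 array, 19 of them in DU145 and 6 in PC3. Of 48803 expression probes, the 28399 that lay above the array median in DU145 or in PC3 were used. The files and the gene tables at hand pair neither the sites nor the probes with genes. The identity of the lines could therefore not be checked against marker genes, and sites and probes are given by identifier.

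Cytosine methylation at CpG dinucleotides is copied to the daughter strand by maintenance methyltransferases when DNA is replicated, so a cell line carries its methylation pattern through culture. Dense methylation of a CpG-rich promoter generally goes with silencing of the gene. Cancer cells commonly gain methylation at such promoters and lose it elsewhere. Prostate carcinoma cells usually depend on the androgen receptor, a hormone-activated transcription factor, and DU145 and PC3 are widely used as models of the disease that no longer does.

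The methylation level was given as a beta value, the methylated fraction of the signal at a site, from 0 to 1. The beta scale of the DU145 array was wider than that of PC3 at both ends. Over 13279 sites below 0.1 in both LNCaP-FGC and RWPE-1, the median beta was 0.0178 in DU145 and 0.0394 in PC3. Over 1958 sites above 0.8 in both of those lines, it was 0.918 in DU145 and 0.891 in PC3. Between sites low on all 4 arrays (10916 sites below 0.1) and sites high on all 4 (1570 sites above 0.8), the medians spanned 0.910 in DU145 and 0.869 in PC3, a ratio of 1.05. The counts by size and by class were therefore also computed after linear rescaling of both arrays to the same 2 medians. They were computed again after quantile normalization, which forces both arrays to a common distribution. Means, medians and correlations are given as deposited. Grouping by the level of LNCaP-FGC and RWPE-1 was repeated after linear rescaling only.

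DU145 was the more methylated of the lines by its mean and the less methylated by its median. The mean beta was 0.340 in DU145 and 0.302 in PC3, and the median was 0.0761 in DU145 and 0.104 in PC3. DU145 lay below PC3, by any amount, at 16884 sites (61.3%) and above it at 10657 (38.7%). As deposited, small differences thus ran mostly one way and large differences the other. The median of DU145 minus PC3 was -0.0106 over all sites and -0.0178 over the 14085 sites below 0.2 in both lines. The counts by any amount were not computed after rescaling, and the part of the wider DU145 scale in them was not tested. Most sites were alike, 18421 of them (66.9%) differing by less than 0.1. Across all sites the betas of the lines had a Pearson correlation of 0.787 and a Spearman correlation of 0.840, both across sites of a single array per line, and sites are not independent replicates.

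A beta at least 0.3 higher in DU145 was found at 3239 sites, which is 11.8% of those compared, and a beta at least 0.3 lower at 1248 sites, or 4.53%. Higher sites thus made up 72.2% of the 4487 differing sites. After linear rescaling the counts were 3204 higher and 1251 lower, with higher sites at 71.9%. After quantile normalization, which removes any net difference between the arrays, they were 2013 and 1928, with higher sites at 51.1%. With no normalization but a difference of at least 2 on the log2(beta / (1 - beta)) scale, which gives more weight to differences near 0 and 1, 4066 sites were higher and 3337 lower, with higher sites at 54.9%. A net difference in methylation between the lines and a non-linear difference between the arrays cannot be told apart with 1 array each. Sites lay densely around the limit of 0.3, with 488 sites 0.3 to 0.35 higher and 545 sites 0.25 to 0.3 higher in DU145, and 197 and 248 for the same ranges in the lower direction. In the higher direction the nearest site inside the limit had 0.620 in DU145 and 0.320 in PC3, and the nearest outside it 0.326 in DU145 and 0.0264 in PC3. In the lower direction these sites had 0.0501 in DU145 and 0.3502 in PC3 inside it, and 0.561 in DU145 and 0.861 in PC3 outside it.

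**Figure D1:**
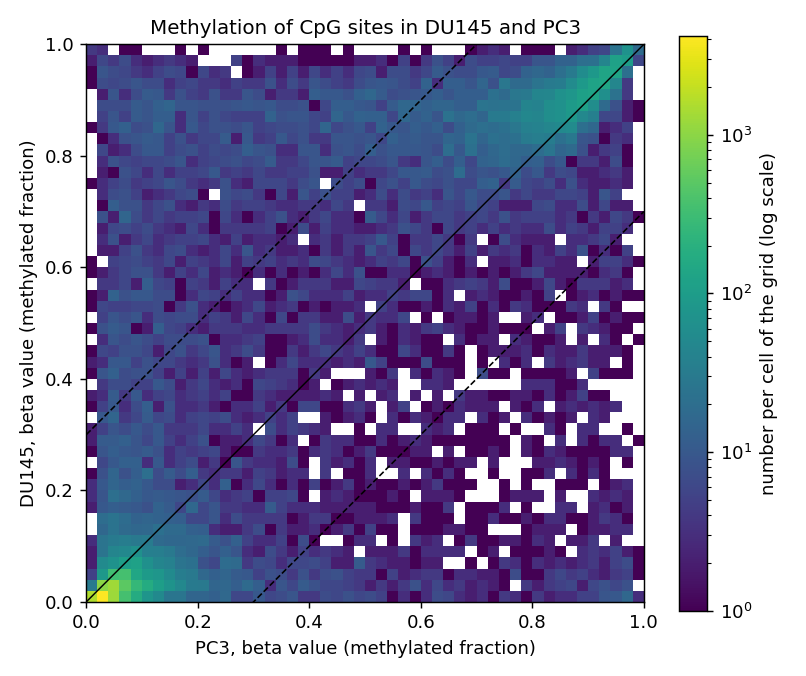
Beta values of 27541 CpG sites in DU145 (vertical axis) against PC3 (horizontal axis), counted on a grid with colour on a log scale; the solid line marks equal values and the dashed lines a difference of 0.3. The 3239 sites above the upper dashed line include a band near the top, where DU145 was methylated and PC3 ranged from unmethylated to intermediate. The region below the lower dashed line holds 1248 sites.

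The excess of higher sites depended on the size of the difference. Sites at least 0.5 apart numbered 1531 higher and 605 lower in DU145, a ratio of 2.53, close to the ratio of 2.60 at 0.3. At 0.7 there were 538 higher and 295 lower sites, a ratio of 1.82. At 0.8 there were 202 higher and 181 lower sites, a ratio of 1.12, so the sites with near-complete opposition between the lines were almost evenly split. Linear rescaling gave ratios of 2.51, 1.80 and 1.12 at the same 3 sizes, and quantile normalization 1.02, 0.967 and 0.828.

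**Figure D2:**
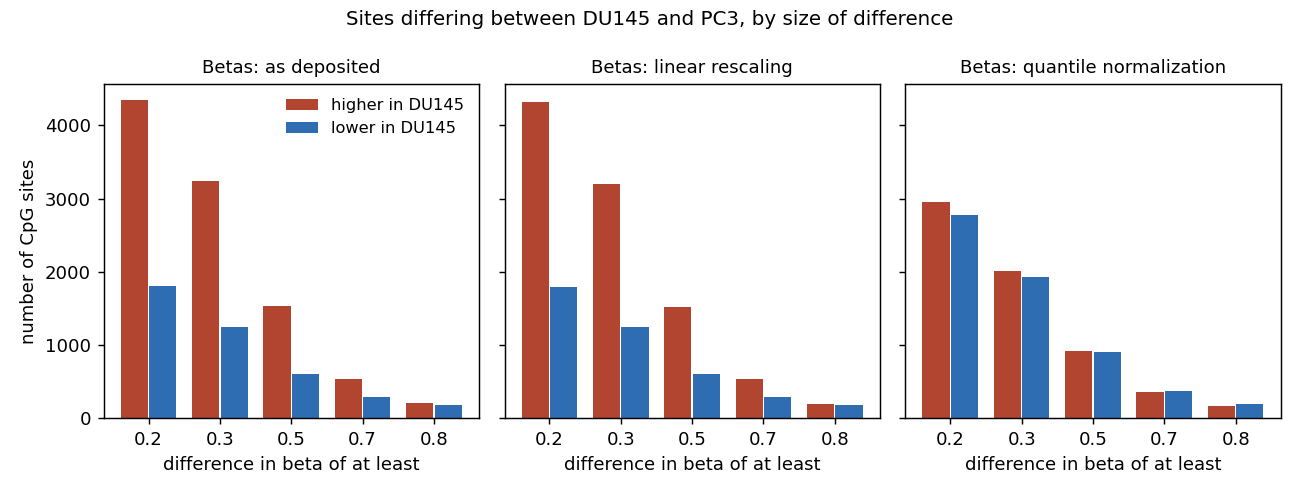
Number of CpG sites with a beta higher (red) or lower (blue) in DU145 than in PC3 by at least 0.2, 0.3, 0.5, 0.7 or 0.8, with betas as deposited, after linear rescaling and after quantile normalization. As deposited, 3239 sites were higher and 1248 lower at 0.3, against 202 and 181 at 0.8; after quantile normalization the counts were 2013 and 1928 at 0.3, and 164 and 198 at 0.8.

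Most PC3 sites were low and could differ only upward. Of 21750 sites with room for DU145 to be 0.3 higher than PC3, 14.9% were, and of 9875 sites with room to be 0.3 lower, 12.6% were. Set against room, the shares in both directions were thus closer to each other than the raw counts. At a size of 0.5 the shares were 7.79% of 19662 sites higher and 7.68% of 7881 sites lower. At 0.8 the order of the shares was the other way round, with 1.24% of 16353 sites higher and 4.14% of 4377 sites lower. After quantile normalization the shares at 0.3 were 9.72% higher and 18.0% lower.

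Grouping the sites by class gave a similar picture. Sites with a beta below 0.2 are called unmethylated, those above 0.8 methylated and the rest intermediate. DU145 had 15557 unmethylated sites (56.5%), 5332 intermediate (19.4%) and 6652 methylated (24.2%). PC3 had 16353 unmethylated (59.4%), 6812 intermediate (24.7%) and 4376 methylated (15.9%). Both lines put 20494 sites (74.4%) in the same class, of which 14085 were unmethylated in both and 3437 methylated in both.

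The largest group of sites in unlike classes was methylated in DU145 and intermediate in PC3, at 2643 sites. The median beta of these was 0.875 in DU145 and 0.621 in PC3, and 1157 of them (43.8%) differed by at least 0.3, so many crossed the limit of 0.8 by a smaller shift. The group with the classes exchanged, intermediate in DU145 and methylated in PC3, held 664 sites, with medians of 0.616 in DU145 and 0.882 in PC3. Intermediate sites in DU145 that were unmethylated in PC3 numbered 1696, with medians of 0.457 in DU145 and 0.0982 in PC3. Unmethylated sites in DU145 that were intermediate in PC3 numbered 1197, with medians of 0.0665 in DU145 and 0.347 in PC3.

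Fully opposite classes were found at 847 sites. In 572 of them the site was methylated in DU145 and unmethylated in PC3, and in 275 it was unmethylated in DU145 and methylated in PC3. The first set had a median beta of 0.882 in DU145 and 0.112 in PC3, and the second 0.0560 in DU145 and 0.912 in PC3. Linear rescaling gave 562 and 277 sites and quantile normalization 353 and 335, so the second count was the steadier. RWPE-1 was unmethylated at 225 of the 572 sites (39.3%, median beta 0.348) and at 176 of the 275 (64.0%, median 0.0800), where its share over all sites was 65.3%. LNCaP-FGC was methylated at 94 of the 572 (16.4%, median 0.231) and at 126 of the 275 (45.8%, median 0.728), where its share over all sites was 14.7%. By these classes, RWPE-1 departed from its share over all sites mainly at the first set and LNCaP-FGC mainly at the second. For RWPE-1 this depended on the class taken. It was methylated at 81 of the 572 and 18 of the 275 sites, against 13.2% of all sites, so by that class it departed at the second set. LNCaP-FGC was unmethylated at 276 of the 572 and 67 of the 275, against 61.1% of all sites. The betas of RWPE-1 and LNCaP-FGC were not used to choose either set. Both sets were, however, chosen by class in DU145 and PC3, so shares over all sites are not a like measure for them. The same shares over all sites of a given class in DU145 or in PC3 are not given here.

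The levels of LNCaP-FGC and RWPE-1 also gave a way to group sites without using DU145 or PC3. Where both of these lines were unmethylated (15011 sites), DU145 was methylated at 276 sites (1.84%) and PC3 at 115 (0.766%). Where both were methylated (1958 sites), DU145 was unmethylated at 20 sites (1.02%) and PC3 at 24 (1.23%), so unmethylated sites were rare there in both lines. Where both were intermediate (3168 sites), the lines parted most. DU145 was methylated at 1353 of these sites (42.7%) and PC3 at 620 (19.6%), while DU145 was unmethylated at 226 (7.13%) and PC3 at 387 (12.2%). After linear rescaling the methylated shares of these intermediate sites were 40.1% in DU145 and 21.0% in PC3. They were not computed after quantile normalization.

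The sites were also grouped into 11 bins by the mean level of those lines, and the order of the medians differed between low and higher bins. Where the mean beta of LNCaP-FGC and RWPE-1 was below 0.05, the median was 0.0151 in DU145 and 0.0349 in PC3. Where that mean was 0.3 to 0.4, the median was 0.558 in DU145 and 0.328 in PC3, and 30.4% of 1438 sites were at least 0.3 higher in DU145 against 8.55% lower. Where it was 0.7 to 0.8, the medians were 0.863 in DU145 and 0.783 in PC3. DU145 had the lower median in both bins below 0.1 and the higher median in each of the 9 bins above. The share of higher sites exceeded the share of lower sites in all 11 bins, with the smallest margin at 0.9 to 1 (2.82% higher and 2.41% lower of 746 sites). After linear rescaling the shares in that bin were 2.82% higher and 2.68% lower. The bins were not computed after quantile normalization.

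**Figure D3:**
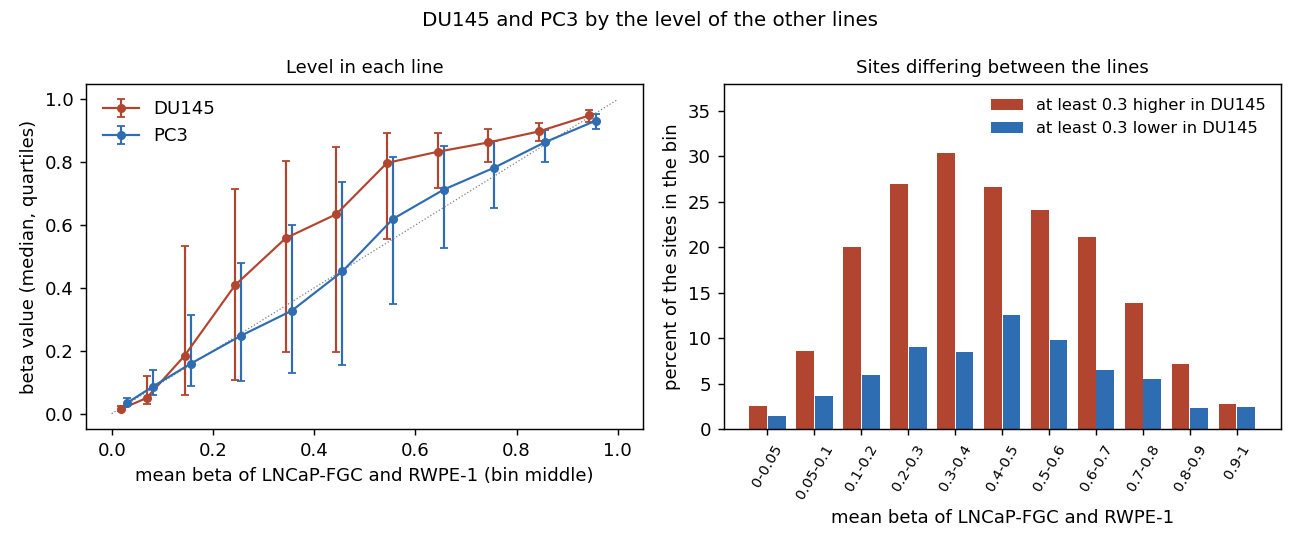
Left, median beta with quartiles in DU145 (red) and PC3 (blue) for sites in bins of the mean beta of LNCaP-FGC and RWPE-1, with a dotted line at equality; right, the percent of sites in each bin at least 0.3 higher or lower in DU145. The lines parted most in the middle bins, with medians of 0.558 in DU145 and 0.328 in PC3 at a mean of 0.3 to 0.4.

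The sites with the largest differences were opposed almost completely. Site cg07533148 had a beta of 0.988 in DU145 and 0.0124 in PC3, with 0.668 in LNCaP-FGC and 0.487 in RWPE-1. Site cg05845178 had 0.985 in DU145 and 0.0159 in PC3, with 0.509 in LNCaP-FGC and 0.203 in RWPE-1. At both of these sites the remaining lines lay between DU145 and PC3. In the other direction, site cg06268694 had 0.0103 in DU145 and 0.983 in PC3, with 0.981 in LNCaP-FGC and 0.507 in RWPE-1. Site cg13801416 had 0.0116 in DU145 and 0.984 in PC3, with 0.882 in LNCaP-FGC and 0.0297 in RWPE-1, so that RWPE-1 matched DU145 and LNCaP-FGC was near PC3. Across the 10 sites with the largest difference in each direction, sizes ran from 0.953 to 0.976 for sites higher in DU145 and from 0.962 to 0.973 for sites lower in DU145. RWPE-1 was unmethylated at 7 of the 10 higher sites and at 7 of the 10 lower sites, near its share of 65.3% over all sites. That share is not a like measure for sites chosen by their difference.

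At the differing sites, RWPE-1 more often resembled the less methylated of the lines. Among the 3239 sites higher in DU145, RWPE-1 was nearer to PC3 at 2093 (64.6%), and among the 1248 sites lower in DU145 it was nearer to DU145 at 995 (79.7%). RWPE-1 also had the lowest mean beta of the 4 arrays (0.258), and the part of that overall level in the nearness counts was not tested. LNCaP-FGC was nearer to PC3 in both directions, at 2252 of the higher sites (69.5%) and 678 of the lower sites (54.3%). Both lines together were nearer to PC3 at 1514 of the higher sites (46.7%) and nearer to DU145 at 501 of the lower sites (40.1%). DU145 is called the line apart in the first case and PC3 in the second. This is by nearness alone, with no least distance set and a tie counted as nearer to PC3. PC3 was the line apart with a low beta at 408 of the higher sites (12.6%), and DU145 at 184 of the lower sites (14.7%). Quantile normalization of the 4 arrays turned the majority for RWPE-1 at the higher sites, of which 44.4% were then nearer to PC3, and put the share nearer to DU145 at the lower sites at 64.5%.

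In gene expression the lines were compared on the deposited log2 values, which share 1 distribution across arrays with a median of 7.37. They were checked on the raw intensities, with which the DU145 column correlated at 0.9993 and the PC3 column at 0.9999, against 0.922 to 0.923 when these lines' columns were exchanged. Across the 28399 probes used, the lines had a Pearson correlation of 0.902, and 73.9% of probes differed by less than 1.5-fold. At least 2-fold higher values in DU145 were found for 1791 probes, or 6.31%, and at least 2-fold lower values for 1844, or 6.49%. How the deposited values were treated for background is not stated in the sources used here. The same filter applied to the reprocessed raw intensities kept 28775 probes. Quantile normalized without background correction, they gave 1795 higher and 1819 lower probes (12.6% differing), close to the deposited counts (12.8% differing). With normexp background correction they gave 2313 higher and 2408 lower probes (16.4% differing).

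The even split of higher and lower probes depended on the scaling. Quantile normalization draws such counts toward equality, and higher probes made up 49.3% of the differing ones. With the raw arrays scaled only to a common median, 1352 of 28775 probes above the median on either array were higher and 2661 lower in DU145. Higher probes then made up 33.7% of the differing ones. Raw medians were 178 in DU145 and 154 in PC3. That scaling put the median difference at -0.06 on the log2 scale over the probes above the median on either array and at -0.23 over those above the 75th percentile on either array, and the higher and lower counts are to be read relative to that shift. With raw intensities that were quantile normalized without background correction, 1760 of the higher and 1797 of the lower probes stayed past 2-fold. With the common median, 1352 of the 1791 higher probes stayed past 2-fold.

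**Figure D4:**
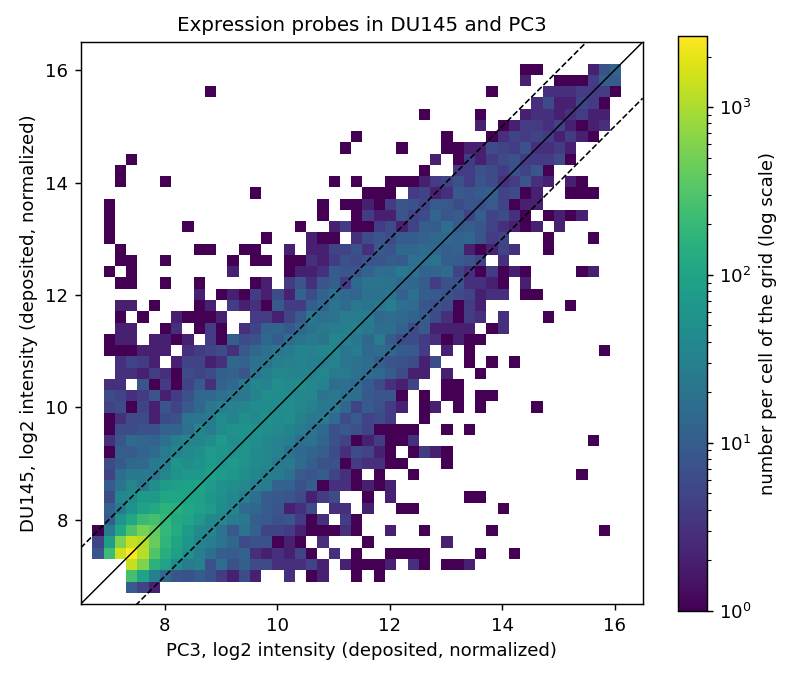
Deposited log2 values of 28399 expression probes in DU145 (vertical axis) against PC3 (horizontal axis), counted on a grid with colour on a log scale; the solid line marks equal values and the dashed lines a 2-fold difference. Most probes lie along the diagonal, with 1791 on or above the upper and 1844 on or below the lower dashed line.

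Most differences were modest. The median difference on the log2 scale was 1.40 among the higher probes and -1.42 among the lower ones. At 4-fold there were 360 higher and 381 lower probes, at 8-fold 111 and 115, at 16-fold 33 and 37, and at 64-fold 8 and 9. The higher probes had a median log2 value of 10.31 in DU145 and 8.56 in PC3, and the lower probes 8.65 in DU145 and 10.37 in PC3. Of the higher probes, 301 (16.8%) were at or below the array median in PC3, and 296 of the lower probes (16.1%) were so in DU145. Over all 48803 probes, binned by the mean of LNCaP-FGC and RWPE-1, which the comparison did not use, 1.25% of 24451 probes at or below 7.37 differed 2-fold between DU145 and PC3, 25.5% of 3256 probes between 9 and 10, and 27.0% of 1346 probes between 11 and 12. Of 698 probes above 13, 91 differed 2-fold.

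Few probes were bright in 1 line of the pair and at or below the array median in the other. A log2 value of at least 10 in DU145 with a value at or below the array median in PC3 was found for 61 probes, which is 1.14% of the 5330 probes that bright in DU145. The reverse, at least 10 in PC3 and at or below the median in DU145, was found for 48 probes, or 0.901% of the 5330 in PC3. Of the 61 probes, 22 were also bright in RWPE-1 (36.1%) and 15 in LNCaP-FGC (24.6%), and 8 (13.1%) were at or below the median in both. Of the 48 probes, 7 were bright in RWPE-1 (14.6%) and 4 in LNCaP-FGC (8.33%), and 18 (37.5%) were at or below the median in both. Over all 28399 probes used, 18.7% were bright in RWPE-1, 18.6% in LNCaP-FGC, and 15.2% were at or below the median in both. The 61 and 48 probes were chosen for brightness in 1 line, so these shares are not a like measure. The same shares over the 5330 bright probes of each line are not given here. Background correction with normexp left these counts at 60 and 48.

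The probes with the largest differences showed both patterns. Probe ILMN_1783142 had a log2 value of 14.48 in DU145 and 7.30 in PC3, with 13.27 in LNCaP-FGC and 11.24 in RWPE-1. Only its PC3 value lay below the array median. Its raw intensity was 26582 in DU145 and 148 in PC3. Probe ILMN_1757387 had 14.15 in DU145 and 7.24 in PC3, with 7.84 in LNCaP-FGC and 7.66 in RWPE-1, so only DU145 was bright. Its raw intensity was 21149 in DU145 and 141 in PC3, and the PC3 intensities of both probes lay below that array's median of 154.

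In the lower direction, probe ILMN_2115135 had 7.75 in DU145 and 15.85 in PC3, with 7.09 in LNCaP-FGC and 7.22 in RWPE-1. Its raw intensity was 223 in DU145 and 60991 in PC3, close to the highest of that array (66181). Probe ILMN_1760347 had 7.43 in DU145 and 14.16 in PC3, with 7.53 in LNCaP-FGC and 7.37 in RWPE-1, and raw intensities of 186 in DU145 and 20643 in PC3. At both probes PC3 alone was bright. The 10 probes with the largest difference in each direction differed in this respect. Of the 10 higher ones, 6 were at or above 10 in RWPE-1 and 5 in LNCaP-FGC, with median values of 11.44 and 10.05 in those lines. Of the 10 lower ones, 1 was at or above 10 in RWPE-1 and 1 in LNCaP-FGC, with medians of 7.33 and 7.45. Over all 28399 probes used, 18.7% were at or above 10 in RWPE-1 and 18.6% in LNCaP-FGC. Those shares are not a like measure, since the 10 probes of each set were bright in DU145 or in PC3 by choice. With 10 probes in each set these are descriptions only.

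Over all differing probes, the lines outside the pair lay more often on the side of lower expression. Among the 1791 probes higher in DU145, RWPE-1 was nearer to PC3 at 1068 (59.6%) and LNCaP-FGC at 996 (55.6%). Among the 1844 probes lower in DU145, RWPE-1 was nearer to DU145 at 1158 (62.8%) and LNCaP-FGC at 1128 (61.2%). By the same nearness rule, DU145 was the line apart at 699 of the higher probes (39.0%) and at 402 of the lower probes (21.8%). PC3 was the line apart at 426 of the higher probes (23.8%) and at 844 of the lower probes (45.8%). Over both directions DU145 was the line apart at 1101 of 3635 probes (30.3%) and PC3 at 1270 (34.9%). After normexp and quantile normalization DU145 was apart at 30.8% and PC3 at 33.6% of 4721 differing probes. Nearness was not computed with the arrays scaled to a common median. In methylation the order was the other way, with DU145 apart at 1698 of 4487 sites (37.8%) and PC3 at 909 (20.3%), but quantile normalization of the 4 methylation arrays brought these shares to 26.5% and 27.0%.

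**Figure D5:**
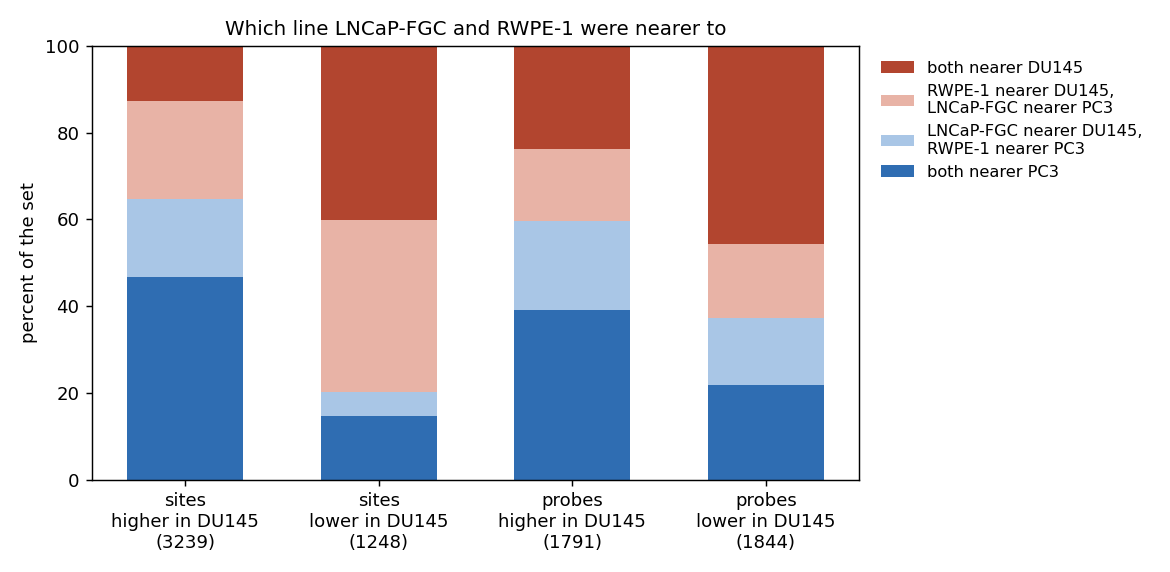
For the sites and probes that differed between DU145 and PC3, the percent at which LNCaP-FGC and RWPE-1 were nearer to DU145 or to PC3, with the number in each set in parentheses. Dark blue, both nearer PC3, takes 46.7% of the sites and 39.0% of the probes higher in DU145; dark red, both nearer DU145, takes 40.1% of the sites and 45.8% of the probes lower in DU145.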

How the data were processed

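Per the series text, bisulfite-converted DNA was hybridised to Illumina HumanMethylation27 arrays and labelled RNA to HumanHT-12 arrays. The authors deposited methylation as beta values (a fraction from 0 to 1), used as given. The authors deposited probe intensity values, which the series text credits to BeadStudio 3.1.3 and which show no background subtraction or scaling between arrays. The authors also deposited log2 values that share 1 distribution over the 4 arrays; how these were background-corrected and normalized is not given in the sources used here.

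Columns were matched to lines by name. Differences are DU145 minus PC3, counted at 0.3 in beta or at 2-fold among probes above the array median in either line. No test was possible with 1 array per line. Array data give no counting error, and the number of arrays limits the precision.

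The linear rescaling set each array's medians over always-low and always-high sites to their mean over arrays. Intensities were reprocessed with limma 3.58.1 (normexp, offset 50, quantile) in R 4.3.3, and the counting rules were checked on simulated data in Python 3.11.15. Named items are the 2 largest differences per direction; gene lists, marker genes and the joining of the assays by gene were planned, but no identifier could be paired with a gene. The comparison, sizes and lists were chosen with earlier results of these data known.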

Additional observations from a re-analysis of the deposited data

Results flagged for a closer look

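Some sites and probes placed DU145 and PC3 on opposite sides of RWPE-1, each by at least 0.3 in beta or at least 2-fold. The difference was not tested, since no line had a repeat array, and both comparisons share the RWPE-1 array of their assay. DU145 was above and PC3 below RWPE-1 at 88 sites, with median betas of 0.878 in DU145, 0.0997 in PC3 and 0.490 in RWPE-1. DU145 was below and PC3 above RWPE-1 at 41 sites, with median betas of 0.0609 in DU145, 0.906 in PC3 and 0.479 in RWPE-1. After quantile normalization of the 4 arrays there were 54 sites in each direction. LNCaP-FGC, which played no part in choosing these sites, had a median of 0.165 at the first set and 0.857 at the second, on the side of PC3 both times. Such sites must be intermediate in RWPE-1, where its betas ran from 0.351 to 0.644 and from 0.314 to 0.618.

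In expression, DU145 was above and PC3 below RWPE-1 at 44 probes, with median log2 values of 11.12 in DU145, 7.65 in PC3 and 9.51 in RWPE-1. DU145 was below and PC3 above RWPE-1 at 36 probes, with medians of 8.87 in DU145, 12.04 in PC3 and 10.22 in RWPE-1. After normexp background correction the counts were 64 and 61 probes. The LNCaP-FGC medians lay between those of DU145 and PC3 at both sets, at 9.02 and 10.21. Single probes could lie outside, since its lowest value at the first set was 6.98 against 7.08 in PC3.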

How the results depend on the processing

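Of 86 alternative values, 60 stayed within the limits used. The limits were 1.5 times for a count, a 95% exact binomial interval for a share, and the size limit for named items. The interval treats sites or probes as independent, which they are not, and measures no error between arrays. Named items were chosen as the largest differences, so their direction is no sign of stability. Some alternatives could hardly move a count. Without the filter the probe counts stayed at 1791 and 1844. With all sites that had a value in DU145 and PC3, 3241 were higher and 1249 lower. Leaving out replicates was not possible with 1 array per line. No paired analysis was possible because each line has 1 array per assay and the results come from no test. Sites higher and lower in DU145 numbered 1531 and 605 at a size of 0.5, 538 and 295 at 0.7 and 202 and 181 at 0.8, the last with 52.7% higher. The sizes of 0.7 and 0.8, the shares with room under other scalings, and the other scalings of the nearness, opposite-direction and bright-probe counts were chosen after seeing the data. Quantile normalization of the 2 arrays gave 2013 and 1928 sites (51.1% higher), 9.72% and 18.0% of the sites with room, and 353 sites methylated in DU145 and unmethylated in PC3. On the log2(beta / (1 - beta)) scale with a size of 2, 4066 sites were higher and 3337 lower in DU145, so higher sites made up 54.9%. Limits of 0.3 and 0.7 gave 1190 sites methylated in DU145 and unmethylated in PC3, and 435 with the classes exchanged. Quantile normalization of the 4 arrays put RWPE-1 nearer PC3 at 44.4% of the higher and 35.5% of the lower sites and LNCaP-FGC nearer PC3 at 62.6% of the higher sites, which turned the majority for RWPE-1 at the higher sites, and it gave 54 sites with DU145 above and PC3 below RWPE-1 and 54 with the reverse. At 4-fold there were 360 higher and 381 lower probes, and scaling to a common median made 33.7% of differing probes higher. After normexp, LNCaP-FGC was nearer PC3 at 41.6% of the lower probes, 64 probes had DU145 above and PC3 below RWPE-1, and 61 had the reverse. The cause of these shifts was not tested. The 3 alternatives set down for joining the assays by gene were not run, as identifiers could not be paired with genes.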
